A study of Mus musculus with 17 samples.

Results

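Genes that sense and repair DNA damage were followed in mouse skin that healed with or without ionizing radiation. The set holds 41 genes, chosen by name from the 34140 genes of the table and drawn from double-strand break, excision and Fanconi repair. RNA of whole skin from C57/BL6j mice was sequenced in 17 libraries. Irradiated skin was taken 3, 6 and 9 days after injury (3, 2 and 3 libraries), and control skin at days 0, 3, 6 and 9 (2, 2, 2 and 3 libraries). All animals carry the same labelled genotype, and control day 0 has no irradiated counterpart. The radiation dose, its timing relative to the injury, the kind of wound and the age and sex of the mice are not stated in the labels, nor is it said whether the libraries of a group came from separate animals. The stated purpose of the study was to find molecules with a role in healing after irradiation.

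A DNA break is first seen by the Mre11, Rad50 and Nbn complex and by the Ku proteins, and the kinases Atm, Atr and Prkdc pass the signal on to the checkpoint kinases Chek1 and Chek2. Breaks are then closed by homologous recombination, which copies the sister chromatid and works in S and G2 phase, or by end joining, which needs no copy. Damaged bases leave by base, nucleotide or mismatch excision, and lesion bypass polymerases copy past what remains. Much of the response runs through phosphorylation of proteins already present, while genes that act at replication forks are transcribed with the cell cycle, in part by E2F factors.

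RefSeq promoter windows (GRCm38.p6) ran from 250 bases before to 50 after the start of transcription. They were searched on both strands for the E2F-like letters TTTCCCGC, TTTCGCGC, TTTGCCGC and TTTGGCGC. Whether the promoters of these genes follow the cell cycle was not tested. Of the 41 genes, 32 had a window with a start within 1000 bases of the gene's end in the table, and 6 of these 32 held the letters (Chek2, Mdc1, Brca2, Bard1, Rad51c and Msh6), against 3.23% of 14898 windows of all genes. The 4 in which the letters lie wholly before the start are printed here 5′ to 3′ on the strand of the gene, with the matched letters (or their reverse complement) in capitals. They begin 152 bases before the start in Chek2 (chr5:110839795-110839874, plus strand), 16 in Mdc1 (chr17:35841418-35841497, plus strand), 168 in Brca2 (chr5:150522417-150522496, plus strand) and 209 in Bard1 (chr1:71103138-71103217, minus strand).
Chek2: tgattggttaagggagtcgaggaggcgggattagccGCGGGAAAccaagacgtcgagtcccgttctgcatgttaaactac
Mdc1: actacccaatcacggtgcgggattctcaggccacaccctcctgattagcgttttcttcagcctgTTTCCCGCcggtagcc
Brca2: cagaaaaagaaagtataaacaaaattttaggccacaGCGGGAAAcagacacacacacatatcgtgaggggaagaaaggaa
Bard1: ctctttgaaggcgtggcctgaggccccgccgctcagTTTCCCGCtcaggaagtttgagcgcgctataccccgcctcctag
A match of letters is a description and not a shown site. The cell-cycle element TTTGAA was in 1 of the 32 windows (Bard1), against 13.7% of all windows, and CCAAT was in 14, against 38%. The full p53 consensus was in none, against 0.0403%, a share so low that its absence is not informative. A single unit of that consensus was in 1 window (Fanca), against 7.38%.

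The libraries held 25440773 to 30797409 assigned fragments. Values are FPKM, that is, fragment counts divided by the length of the gene and the depth of the library, so levels may be compared between genes. Fold changes are log2 differences of FPKM + 1, with their standard error (SE) from limma's fit to all 17 libraries, and understate the change of genes near or below 1 FPKM. A gene was tested if it reached 1 FPKM in at least 2 libraries, as 15271 genes did, and it was called (rose or fell) at an adjusted p under 0.05. Keratinocyte markers (Krt5, Krt14, Krt1, Krt10, Krt15 and Trp63) summed to 2499 FPKM or more in every library and none was at 0. The share of FPKM from mitochondrially encoded genes was 8.33% to 12.6% except at day 0, where it was 31.8% in replicate 1 and 21.7% in replicate 2. In whole tissue, fewer cells of a type and less RNA per cell cannot be told apart.

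Repair genes were expressed at low to moderate levels. Parp2, which senses single-strand breaks, had the highest median over the 17 libraries (13 FPKM), followed by Xrcc5, the Ku80 subunit that caps broken ends (11.6 FPKM), and Nbn (9.91 FPKM). The summed level of the 41 genes was 155.6 to 162.8, 139.6 to 163.6 and 154.6 to 169.5 FPKM in irradiated skin at days 3, 6 and 9, and 114.1 to 130.9, 172.2 to 182.3, 138.0 to 156.0 and 142.3 to 161.2 FPKM in control skin at days 0, 3, 6 and 9. The day-0 libraries lay below all others, and the control day-3 libraries above all others. Of the 41 genes, 35 were tested and 28 of these were at 1 FPKM or more in every library. The other 7 (Chek1, Brca1, Brca2, Bard1, Xrcc2, Fancd2 and Fanca) were below 1 FPKM in at least 1 library, so that they were tested only because some libraries were high. Atr, Palb2, Rad51c, Rad54l, Exo1 and Fanci were below 1 FPKM in all but at most 1 library and were not tested. The lowest count of any of the 41 genes in a library was 14 fragments, and 10 genes went below 50 fragments somewhere.

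**Figure D1:**
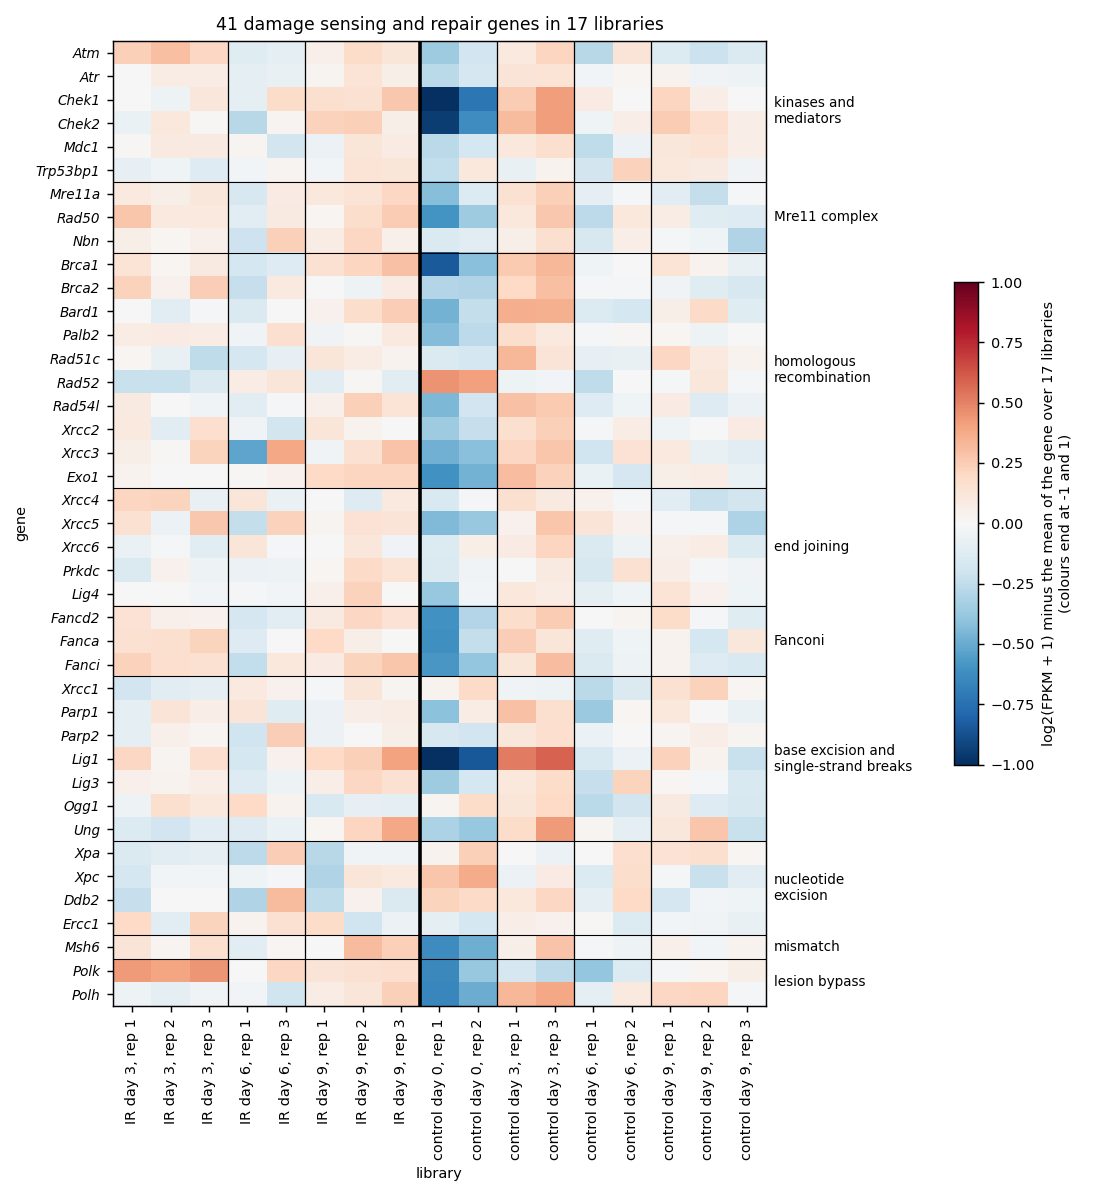
Log2(FPKM + 1) of each of the 41 genes (rows, grouped by role) in each of the 17 libraries (columns, irradiated left, control right), as the difference from the mean of the gene over all libraries. The day-0 columns are blue for most genes but not for all, the exceptions including Rad52, Xpc, Xpa and Ddb2. The control day-3 columns are mostly red, and Polk is reddest in irradiated skin at day 3.

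Irradiated skin differed from control skin of the same day in very few repair genes. Polk, which encodes DNA polymerase kappa, a lesion bypass polymerase, rose at day 3 and in the average over the 3 days. Polh, which encodes polymerase eta, the other bypass polymerase of the set, fell at day 3. No other tested repair gene was called at day 3, 6 or 9, in the average, or in the test of whether the effect of radiation differed between days. At day 3, 1 of 35 rose, where 1.56% of all tested genes rose, and 1 fell, where 0.288% fell. At day 6, 0 rose (all genes 0.151%) and 0 fell (0.124%), and at day 9, 0 rose (2.33%) and 0 fell (3.05%). In the average over days 1 rose (4.36%) and 0 fell (2.57%).

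Polk (ENSMUSG00000021668, chr13:96480690-96542579, minus strand, mm10) had 5.0, 4.86 and 5.06 FPKM in irradiated skin at day 3, against 2.99 and 2.73 FPKM in control skin. At day 6 it had 3.45 and 4.16 FPKM in irradiated skin, against 2.42 and 3.07 FPKM in control skin. At day 9 it had 3.88, 3.96 and 4.01 FPKM in irradiated skin, against 3.41, 3.54 and 3.64 FPKM in control skin. Every irradiated library lay above every control library of its day, and the gap narrowed with time. Means at day 3 were 4.97 ± 0.0989 FPKM in irradiated skin (SD, n = 3) and 2.86 ± 0.178 FPKM in control skin (SD, n = 2). The log2 fold change was 0.63 (SE 0.0981, adjusted p 0.00505) at day 3. It was 0.36 at day 6 (adjusted p 0.171) and 0.13 at day 9, where the test was not passed. The average over days was 0.37 (SE 0.0567, adjusted p 0.00219), and it passed under all 26 alternatives that tested Polk (adjusted p from 0.000504 to 0.0120). Without control day 3 replicate 3 the day-3 value no longer passed (adjusted p 0.121). The effect was 0.50 smaller at day 9 than at day 3 on the log2 scale, with an adjusted p of 0.243 in the F test over days. Transcription of Polk has been tied to p53 in mouse cells.

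Polh (ENSMUSG00000023953, chr17:46172004-46202625, minus strand) went the other way. At day 3 it had 7.58, 7.32 and 7.68 FPKM in irradiated skin, against 10.2 and 10.6 FPKM in control skin, with no overlap. At day 6 the values were 7.73 and 6.74 FPKM in irradiated skin and 7.31 and 8.51 FPKM in control skin. At day 9 they were 8.37, 8.65 and 9.47 FPKM in irradiated skin and 9.25, 9.29 and 7.76 FPKM in control skin. Libraries of the arms overlapped at both later days. The day-3 change was -0.42 (SE 0.0974, adjusted p 0.0498), just inside the threshold, and 10 of 17 alternatives ended the call (adjusted p 0.0601 to 0.445), among them every fit that left out a day-3 library. Polk and Polh share no exon bases with other annotated genes.

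**Figure D2:**
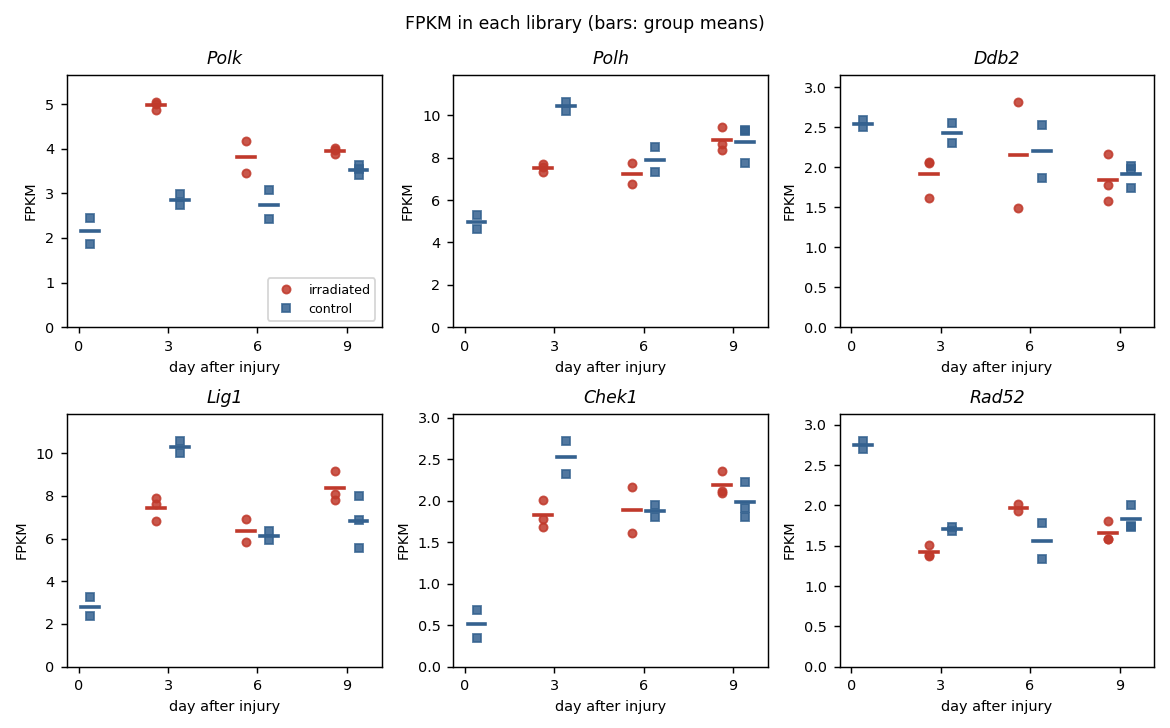
FPKM of 6 repair genes in each library by day after injury, irradiated (circles, left) and control (squares, right), with bars at the group means. Polk lies higher in irradiated skin on each day, the group means of Polh, Lig1 and Chek1 are highest in control skin at day 3, and Rad52 is highest at day 0.

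At day 3 most other repair genes were slightly lower in irradiated skin, though none of them was called. The log2 fold change was below 0 for 32 of 35 genes (29 to 32 under the 4 scalings tried), with a median of -0.09 against -0.04 over all tested genes. In 20 of 35 every irradiated library was lower than every control library, which was so for 25.1% of all tested genes, and in 1, Polk, every library was higher (15.9%). Among the 28 genes at 1 FPKM or more throughout, 16 were lower in this way. An unadjusted p under 0.05 was reached by 8 genes, of which 7 were lower, and by 11.4% of all genes.

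By role, the checkpoint kinases stood lowest among the signalling genes at day 3. Chek1, which holds cells before mitosis, had 1.78, 1.69 and 2.01 FPKM in irradiated skin and 2.32 and 2.72 FPKM in control skin (log2 fold change -0.32, adjusted p 0.304). Chek2, which is switched on by Atm, had 3.04, 3.56 and 3.28 FPKM in irradiated skin and 4.28 and 4.66 FPKM in control skin (-0.35, adjusted p 0.224). Neither pair of groups overlapped. The Mre11 complex members lay between -0.10 (Mre11a) and -0.03 (Rad50), and Atm, the kinase that answers breaks, at 0.09. In homologous recombination, Bard1, the partner of Brca1, had 0.717, 0.591 and 0.706 FPKM in irradiated skin and 1.21 and 1.20 FPKM in control skin (-0.40, adjusted p 0.141). Brca1 itself, which directs breaks to recombination, was at -0.22, and Rad52, which anneals single strands, at -0.16.

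In excision repair, Lig1, the ligase that seals replication and excision nicks, had 7.88, 6.82 and 7.62 FPKM in irradiated skin and 10.0 and 10.6 FPKM in control skin at day 3 (-0.42, adjusted p 0.192). Ung, which removes uracil from DNA, had 1.46, 1.37 and 1.52 FPKM in irradiated skin and 2.09 and 2.64 FPKM in control skin (-0.45, adjusted p 0.180). In both the control libraries were the higher ones, without overlap. The end joining genes ranged from -0.21 (Xrcc6, the Ku70 subunit) to -0.04 (Xrcc5), apart from Xrcc4, which holds Lig4 at the ends and lay closest to 0, and the nucleotide excision genes from -0.24 (Ddb2) to 0.05 (Ercc1). Ddb2, which finds ultraviolet lesions and is a p53 target in human but not in mouse cells, had 1.61, 2.06 and 2.06 FPKM in irradiated skin and 2.30 and 2.55 FPKM in control skin (adjusted p 0.654), and 23.8% of its exon bases are shared with Acp2 on the opposite strand. Fancd2, the Fanconi protein that is ubiquitinated at crosslinks, was at -0.14, and Msh6, which finds mismatches, at -0.06.

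At day 6 the values were evenly spread around 0 (median 0.00 against 0.02 over all genes). In 7 of 35 genes every irradiated library was higher (all genes 19.8%) and in 3 every one was lower (16%). An unadjusted p under 0.05 was reached by 4 genes (all genes 15.4%), each of them higher in irradiated skin. They were Polk, Ogg1, which removes oxidised guanine, Xrcc1, the scaffold of single-strand break repair, and Rad52. Ogg1 had 3.77 and 3.25 FPKM in irradiated skin and 2.44 and 2.65 FPKM in control skin (0.35, adjusted p 0.185). Xrcc1 had 4.28 and 4.09 FPKM in irradiated skin and 3.10 and 3.48 FPKM in control skin (0.27, adjusted p 0.210).

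At day 9 the median was 0.10, against 0.02 over all genes. In 7 of 35 genes every irradiated library was higher (16.8%) and in 1, Xpa, every one was lower (17.2%). The 3 genes with an unadjusted p under 0.05 (all genes 22.7%) were Atm, Mre11a and Lig1. Atm had 2.14, 2.46 and 2.30 FPKM in irradiated skin and 1.76, 1.61 and 1.76 FPKM in control skin (0.28, adjusted p 0.107). Mre11a, the nuclease that trims broken ends, had 4.01, 4.12 and 4.39 FPKM in irradiated skin and 3.31, 2.95 and 3.59 FPKM in control skin (0.27, adjusted p 0.0942). Lig1 overlapped between the arms. In both Atm and Mre11a the irradiated libraries were the higher ones without exception.

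The effect of radiation was not shown to differ between days for any repair gene. In limma's F test 0 of 35 genes passed (0.0131% of all genes did), and 9 had an unadjusted p under 0.05 (15.3% of all genes). The effect at day 9 minus that at day 3 had a median of 0.20 (0.04 over all genes), from -0.50 (Polk) to 0.69 (Lig1). For the 34 genes not called in the average, the 95% intervals of the log2 fold change ran from -0.31 (Ddb2) to 0.25 (Atm) at their outermost bounds and were 0.209 to 0.516 wide. At day 3 the outermost bounds were -0.76 (Ung) and 0.33 (Atm), at day 6 -0.53 (Xrcc3) and 0.59 (Polk), and at day 9 -0.48 (Xpa) and 0.56 (Xrcc3). Missing the threshold does not show that these genes were equal in the arms.

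**Figure D3:**
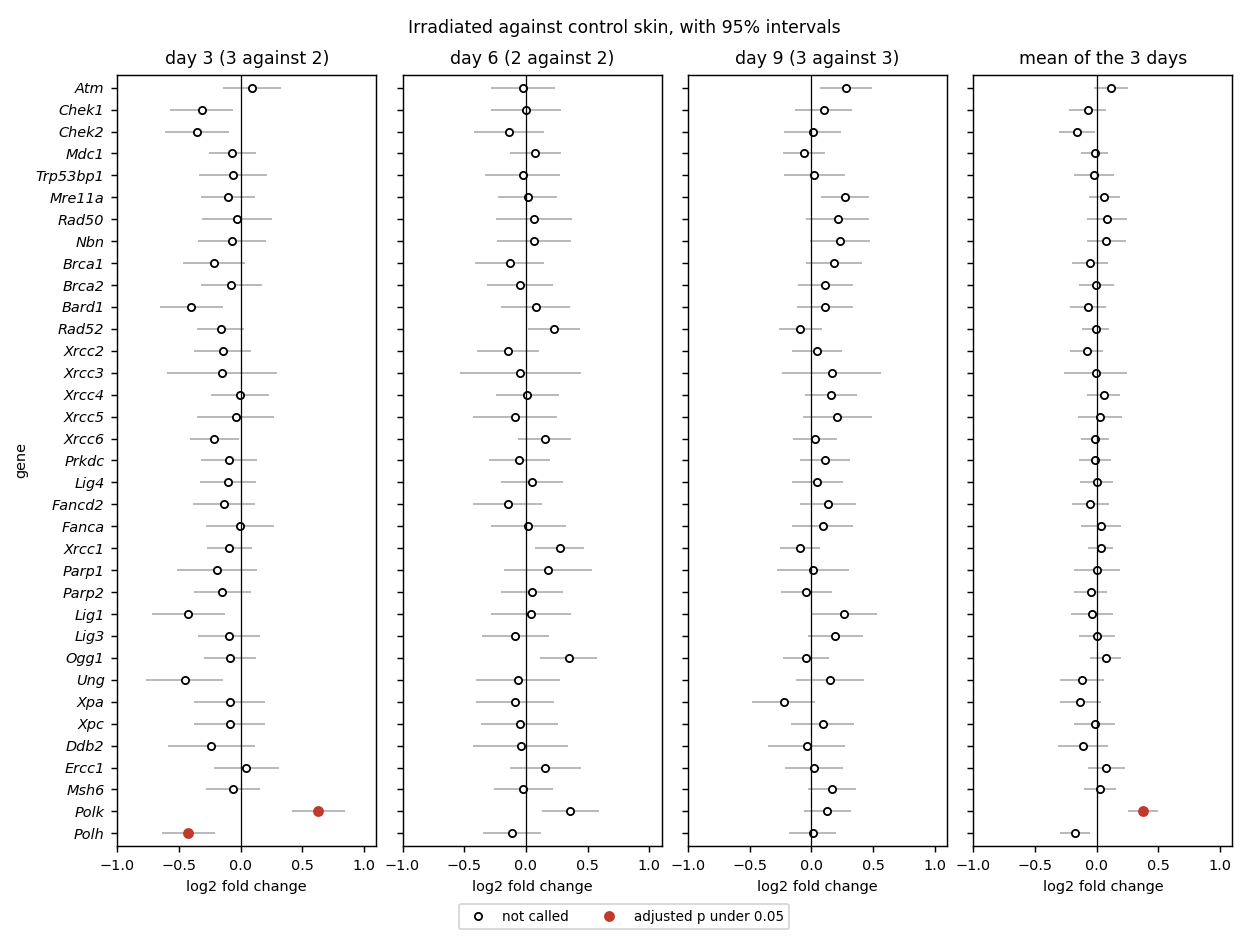
Log2 fold change of FPKM + 1, irradiated against control, for the 35 tested repair genes at days 3, 6 and 9 and averaged, with 95% intervals and called genes filled. Polk is called at day 3 and in the average, Polh at day 3, and 32 of 35 points lie left of 0 at day 3.

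Other gene lists were compared between irradiated and control skin in the same way, with no test of a difference between lists. Of 26 p53 target genes, 16 rose and 0 fell in the average over days (median 0.48), and 8 rose at day 3 (median 0.38). Cdkn1a, the p53 target that stops the cycle, had 204, 207 and 204 FPKM in irradiated skin at day 3, against 114 and 90.5 FPKM in control skin (log2 fold change 1.01, SE 0.211, adjusted p 0.0296). Trp53inp1 rose by 1.48 at day 3, Bax, which opens mitochondria in cell death, by 0.94, and Ccng1 by 0.95, while Mdm2, the brake on p53, stood at 0.69 (adjusted p 0.0731) and Phlda3 at 0.35 (adjusted p 0.0995). Of 35 proliferation markers, 0 rose and 2 fell at day 3 (Nusap1 by 0.71 and Tyms by 0.44), with a median of -0.44. In 34 of these 35 every irradiated library was lower than every control library (all genes 25.1%). At day 6, 0 were called (median -0.05), and at day 9, 0 were called with a median of 0.16. At day 9, 11 of 35 had every irradiated library higher (all genes 16.8%). An unadjusted p under 0.05 was reached by 5 (all genes 22.7%), all of them higher. In the average over days only Nusap1 was called, and it fell (median -0.08). The effect at day 9 minus that at day 3 had a median of 0.67, and 0 passed the F test. Mki67 had 13, 11.6 and 12.1 FPKM in irradiated skin and 22.3 and 22.4 FPKM in control skin at day 3 (-0.82, adjusted p 0.0608), and Top2a stood at -0.61 (adjusted p 0.167). Their part in the lower repair genes of day 3 was not tested.

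Among 98 further repair genes, of which 92 were tested, Mgmt stood apart in size. Mgmt removes alkyl groups from guanine. It had 4.48, 5.34 and 5.49 FPKM in irradiated skin at day 3, against 1.43 and 1.72 FPKM in control skin. At day 6 it had 4.66 and 4.36 FPKM in irradiated skin and 1.49 and 2.22 FPKM in control skin, and at day 9 it had 3.45, 3.51 and 4.04 FPKM in irradiated skin and 1.64, 2.01 and 1.77 FPKM in control skin. All irradiated libraries were higher, and Mgmt rose by 1.24 (SE 0.118, adjusted p 0.000891) at day 3, by 0.96 (adjusted p 0.0124) at day 6 and by 0.73 (adjusted p 0.00510) at day 9. In the average over days 3 of the 92 rose (Mgmt by 0.98, Timeless by 0.46 and Parp3 by 0.43) and 3 fell (Neil3 fell by 0.29, Fancb fell by 0.21 and Smc6 fell by 0.20), with a median of -0.04. Timeless, a replication fork protein, had 6.87, 5.45 and 5.36 FPKM in irradiated skin at day 3 and 4.0 and 4.02 FPKM in control skin. Neil3, a glycosylase of replicating cells, also fell at day 3 (-0.55, adjusted p 0.0491).

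Markers of other cells moved with the arms as well. The red blood cell list (Hba-a1, Hba-a2, Hbb-bs, Hbb-bt and Alas2) summed to 2.03 to 8.34 FPKM in irradiated skin at day 3, against 155.5 to 209.7 FPKM in control skin, and all 5 genes fell. At day 6 the sums were 0.757 to 1.34 FPKM in irradiated skin, where Hba-a2 was listed at 0, and 84.7 to 133.1 FPKM in control skin, and 4 fell. At day 9 they were 52.0 to 80.1 FPKM in irradiated skin and 76.6 to 197.6 FPKM in control skin, and 0 of 5 were called. In the average over days, mast cell markers had 2 of 5 risen (Cma1 and Mcpt4), adipocyte markers 1 of 4 (Adipoq) and macrophage and monocyte markers 1 of 5 (Cd68), and the only tested B cell marker, Cd79b, fell. At day 9 alone, 4 of 5 mast cell and 2 of 4 adipocyte markers rose and 2 of 6 hair follicle markers fell. None of the tested keratinocyte (6), fibroblast (6), leukocyte (5), T cell (4), neutrophil (5), endothelial (5), skeletal muscle (5) or hair follicle (6) markers was called in the average. The part of these cells in the repair gene values was not tested.

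**Figure D4:**
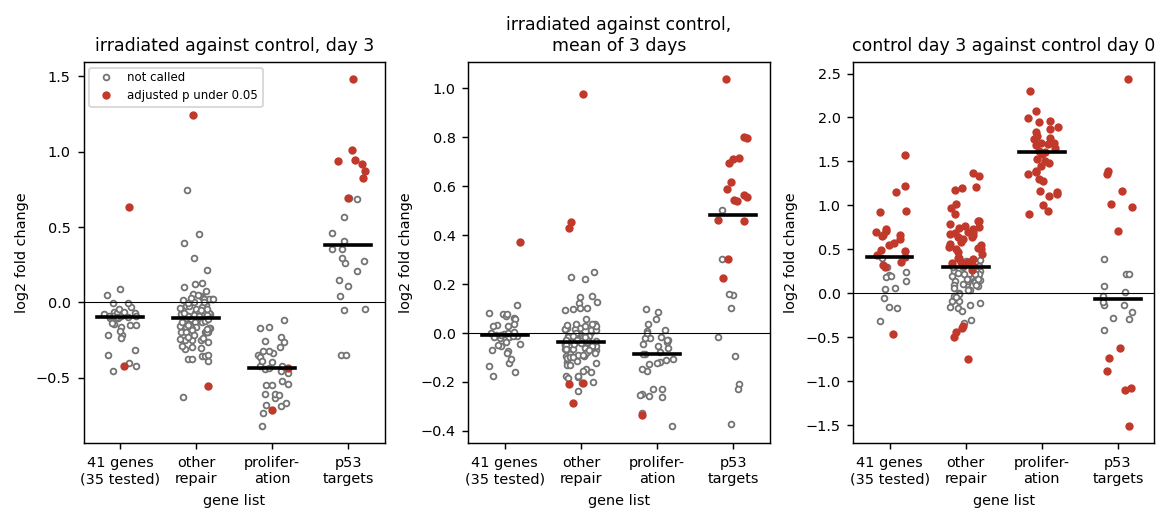
Log2 fold change of each tested gene of 4 lists (the 41 repair genes, other repair genes, proliferation markers, p53 targets), with bars at the list medians and called genes filled. In the irradiated against control panels the repair gene medians lie at -0.09 and -0.01, and in the panel of control day 3 against day 0 the medians are 0.41, 0.30, 1.61 and -0.06 from left to right.

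After wounding without radiation, in the fit to all 17 libraries, the 35 tested repair genes were called more often than all genes at day 3. They were called about as often as all genes at days 6 and 9. These 35 include the 7 genes that were tested only because some libraries were high. Against control day 0, 21 of 35 rose and 1 fell at day 3, 10 rose and 3 fell at day 6, and 14 rose and 2 fell at day 9. Over all tested genes 25.8% rose and 12.4% fell at day 3, 21.1% and 14.2% at day 6, and 30.4% and 18% at day 9. In either direction together, 62.9% of the repair genes were called at day 3 (38.1% of all genes), 37.1% at day 6 (35.3%) and 45.7% at day 9 (48.4%). On the scale of log2(FPKM + 1), Lig1, Chek1 and Chek2 rose most on each day, and Rad52 fell on each day. That scale understates rises from below 1 FPKM, such as those of Chek1 and Brca1. Over the 28 genes at 1 FPKM or more in every library, 14 rose and 1 fell at day 3. Of these 28, 6 rose and 3 fell at day 6, and 8 rose and 2 fell at day 9. Without control day 0 replicate 1, or without control day 3 replicate 3, 12 rose and 1 fell at day 3, and without control day 0 replicate 1 only 7 rose and 2 fell at day 9. At day 6, 6 rose and 3 fell without control day 0 replicate 1 or without control day 6 replicate 2. These left-out counts are of all tested repair genes. The share of all genes called in the same fits is not given, so the counts cannot be set against it. When only the groups compared at day 6 were fitted, 0 repair genes and 5.56% of all genes were called. The 3 comparisons share the 2 day-0 libraries, and each also shares the control libraries of its day with the radiation comparison of that day.

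All genes shifted upward against day 0, by a median of 0.16 at day 3, 0.11 at day 6 and 0.15 at day 9 on the log2 scale, beside the higher mitochondrial share of day 0. The median of the 35 repair genes was 0.41, 0.20 and 0.22. When the libraries were rescaled (median of ratios, quantiles, or nuclear genes alone), the shift of all genes came to between -0.06 and 0.10 and 13 repair genes were higher and 1 lower at day 3 under all 4 scalings, 6 and 3 at day 6, and 8 and 2 at day 9. Under single rescalings, 2329 to 2544 of all 15271 genes were higher and 2286 to 3089 lower at day 3. At day 6 the counts were 1691 to 2379 and 3023 to 3134, and at day 9 3620 to 3978 and 2924 to 3599. The count of all genes called under all 4 scalings was not made. Values below are those of the unscaled table. In the account by role that follows, rose and fell are used of single genes called under all 4 scalings at the day named, while the counts of other lists are those of the unscaled table.

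Among the signalling kinases, Chek1 (ENSMUSG00000032113) had 0.348 and 0.687 FPKM at day 0, 2.32 and 2.72 at day 3, 1.94 and 1.80 at day 6 and 2.23, 1.91 and 1.80 at day 9. It rose by 1.22, 0.93 and 0.98 on these days (SE 0.130, 0.130 and 0.119, adjusted p 5.55e-05, 0.000276 and 5.17e-05). Chek2 (ENSMUSG00000029521) had 1.19 and 1.75 FPKM at day 0, 4.28 and 4.66 at day 3, 3.12 and 3.44 at day 6 and 4.06, 3.76 and 3.44 at day 9, and it rose by 1.15, 0.80 and 0.95. For both kinases every later library was above both day-0 libraries. Atm reached 0.43 at day 3, a call that was lost with nuclear scaling (adjusted p 0.0881). Trp53bp1, which steers breaks to end joining, was called on no day.

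In the Mre11 complex, Rad50, its coiled tether, had 3.85 and 4.75 FPKM at day 0, 6.89 and 7.88 at day 3, 5.15 and 6.93 at day 6 and 6.73, 5.74 and 5.72 at day 9. It rose by 0.66 at day 3 (adjusted p 0.00320). Mre11a had 2.47 and 3.23 FPKM at day 0, 4.17 and 4.48 at day 3, 3.38 and 3.61 at day 6 and 3.31, 2.95 and 3.59 at day 9, and rose by 0.48 at day 3. Its day-9 libraries overlapped those of day 0. Nbn, the third subunit, which recruits Atm, was called on no day (0.24, 0.08 and 0.01).

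In homologous recombination, Brca1 (ENSMUSG00000017146) had 0.217 and 0.625 FPKM at day 0, 1.61 and 1.74 at day 3, 1.11 and 1.18 at day 6 and 1.40, 1.23 and 1.07 at day 9. It rose by 0.93, 0.61 and 0.66 (adjusted p 0.000225, 0.00312 and 0.000617). Bard1 had 0.243 and 0.456 FPKM at day 0, 1.21 and 1.20 at day 3, 0.562 and 0.528 at day 6 and 0.793, 0.963 and 0.587 at day 9, and rose by 0.71 at day 3. Both genes were lowest in the day-0 libraries. Brca2, a mediator of strand exchange, had 0.424 and 0.420 FPKM at day 0, 1.0 and 1.15 at day 3, 0.728 and 0.722 at day 6 and 0.708, 0.608 and 0.566 at day 9, and rose by 0.55 at day 3. Xrcc3, which also acts in recombination, had 4.16 and 4.39 FPKM at day 0, 7.33 and 7.75 at day 3, 5.27 and 6.98 at day 6 and 6.69, 5.85 and 5.70 at day 9, and its day-3 value of 0.70 was not called under every scaling.

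Rad52 (ENSMUSG00000030166, chr6:119902698-119922828, plus strand) went the other way from the rest of its pathway. It had 2.80 and 2.70 FPKM at day 0, 1.69 and 1.74 at day 3, 1.33 and 1.78 at day 6 and 1.74, 2.0 and 1.74 at day 9. It fell by 0.47, 0.56 and 0.41 on these days (SE 0.0966, 0.0966 and 0.0882, adjusted p 0.00253, 0.000990 and 0.00233). The 8 irradiated libraries had 1.38 to 2.02 FPKM, so day 0 was the highest group of all. In mammals Brca2 does the mediator work that Rad52 does in yeast.

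Of the end joining genes none was called under all scalings. Xrcc5 had 8.0 and 8.36 FPKM at day 0, 11.6 and 13.8 at day 3, 12.3 and 11.6 at day 6 and 11.1, 11.1 and 8.85 at day 9, with log2 fold changes of 0.57, 0.50 and 0.30. Its later libraries were all above day 0. Xrcc4, Xrcc6, Lig4 and Prkdc, the kinase that Ku recruits, were called on no day in the unscaled table either. In the Fanconi pathway, Fancd2 had 0.144 and 0.418 FPKM at day 0, 0.965 and 1.07 at day 3, 0.734 and 0.770 at day 6 and 0.975, 0.712 and 0.600 at day 9, and it rose by 0.66 at day 3 and 0.46 at day 9. Fanca, a subunit of the ligase that acts on Fancd2, had 0.170 and 0.516 FPKM at day 0, 1.13 and 0.955 at day 3, 0.649 and 0.744 at day 6 and 0.842, 0.591 and 0.935 at day 9, and rose by 0.61 at day 3. Both had fewer than 50 fragments in 1 day-0 library, and 10.5% of the exon bases of Fanca are shared with Zfp276 on the opposite strand.

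In base excision and single-strand break repair, Lig1 (ENSMUSG00000056394, chr7:13277283-13311433, plus strand) had the largest change of the 35 tested genes on the scale of log2(FPKM + 1). It had 2.36 and 3.27 FPKM at day 0, 10.0 and 10.6 at day 3, 5.91 and 6.37 at day 6 and 8.01, 6.86 and 5.57 at day 9. It rose by 1.58, 0.92 and 1.03 (SE 0.150, 0.150 and 0.137, adjusted p 3.62e-05, 0.000732 and 9.00e-05). All later libraries lay above day 0. Ung rose by 0.66 at day 3. The other ligase of this pathway, Lig3, Parp1 and Parp2, the break sensors, did not pass under all scalings, and 25.1% of the exon bases of Lig3 are shared with Rffl. Xrcc1 and Ogg1 fell at day 6, by 0.32 and 0.33 (adjusted p 0.0169 and 0.029). Of 15 alternatives, 4 ended the call of Xrcc1 and 6 that of Ogg1, among them the fit without control day 6 replicate 1. The same control day-6 libraries served in the radiation comparison of day 6. Xrcc1 had 4.08 and 4.64 FPKM at day 0, 3.83 and 3.79 at day 3, 3.10 and 3.48 at day 6 and 4.51, 4.81 and 4.01 at day 9.

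In nucleotide excision repair no gene rose. Xpc, which finds helix distortions, had 4.61 and 5.0 FPKM at day 0, 3.45 and 3.90 at day 3, 3.21 and 4.24 at day 6 and 3.59, 2.96 and 3.27 at day 9. It fell by 0.44 at day 9 (SE 0.132, adjusted p 0.0149), and all later libraries were below day 0. Xpa, Ddb2 and Ercc1 were called on no day. The mismatch gene Msh6 had 4.80 and 5.40 FPKM at day 0, 8.36 and 9.91 at day 3, 7.93 and 7.68 at day 6 and 8.28, 7.79 and 8.20 at day 9, and it rose by 0.73, 0.53 and 0.58 (adjusted p 0.000400, 0.00307 and 0.000612).

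Of the bypass polymerases, Polh had 4.65 and 5.30 FPKM at day 0 and the control values given above later, and it rose by 0.94, 0.58 and 0.71 (adjusted p 7.66e-05, 0.00153 and 0.000118). Polk had 1.86 and 2.44 FPKM at day 0 and rose by 0.53 at day 9 (adjusted p 0.000912), while its 0.30 at day 3 did not pass under every scaling. On no single day was Polk called both for wounding under all 4 scalings and for radiation, and at day 6 control replicate 1 (2.42 FPKM) lay below the higher day-0 library. Polh had its highest libraries in control skin at day 3. Of the 5 tested genes with E2F-like letters in the promoter, 5 rose at day 3 in the unscaled table, 2 at day 6 and 4 at day 9. Of the 22 tested genes with a window but without these letters, 13 rose at day 3, 5 at day 6 and 7 at day 9. These counts are a description only: Brca2 and Bard1 passed the minimum level mainly through day-3 libraries in which they were high, and Mdc1 lost its day-3 call under scaling.

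**Figure D5:**
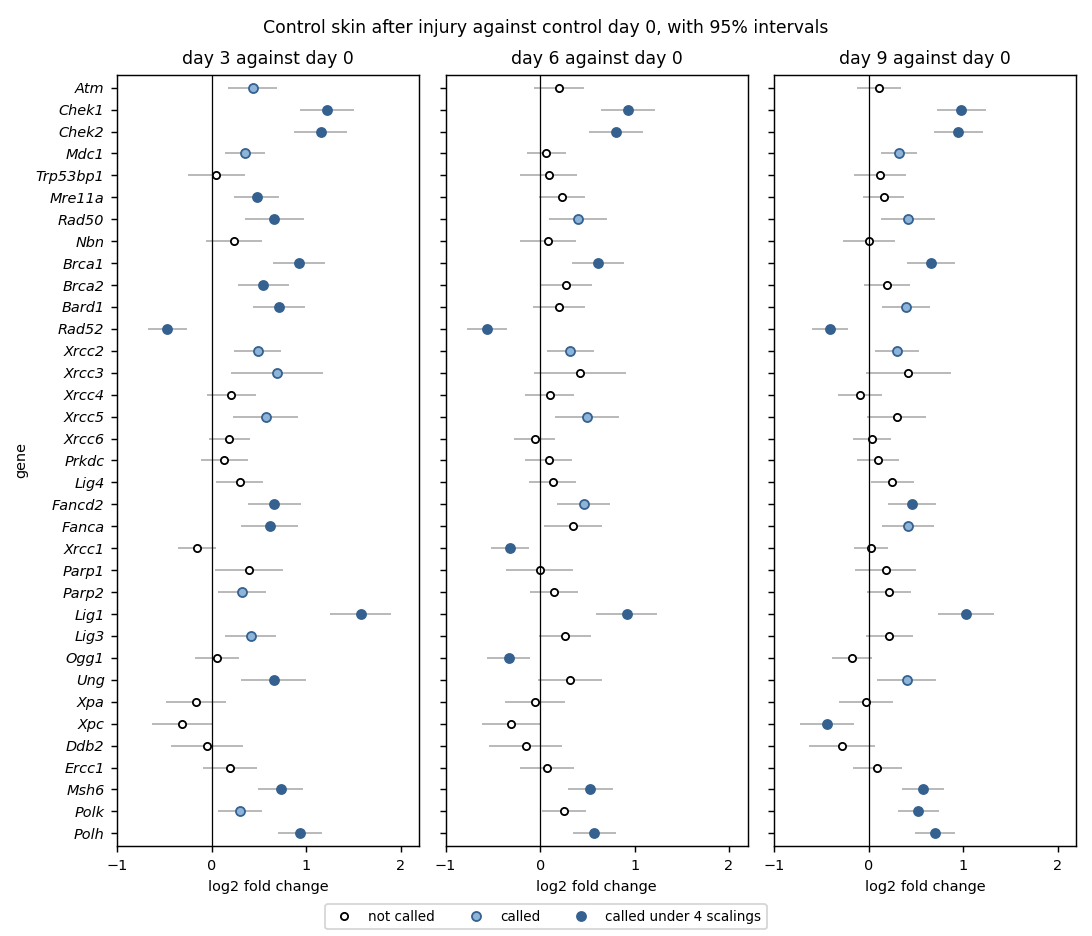
Log2 fold change of FPKM + 1 in control skin at days 3, 6 and 9 against control day 0, for the 35 tested repair genes, with 95% intervals. Dark points are called under all 4 scalings (13 higher and 1 lower at day 3), light points in the unscaled table but not under all 4, and open points are not called.

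The 6 genes below the minimum level could be followed as fragment counts, recovered from the FPKM and tested with limma-voom where a gene had at least 10 fragments in 2 libraries. This alternative was chosen after seeing the data. All 6 were higher in control skin at day 3 than at day 0 with an adjusted p under 0.05. In the same fit 4006 of 19629 genes were higher and 2009 lower. Exo1, the nuclease that resects ends, had 0.0887 and 0.191 FPKM at day 0, 1.05 and 0.941 at day 3, 0.582 and 0.477 at day 6 and 0.722, 0.740 and 0.583 at day 9. Its log2 fold change at day 3 was 2.88 (SE 0.271) on the fragment scale, and that of Fanci, the partner of Fancd2, was 2.47. Rad54l, a motor of strand exchange, followed with 1.95, Palb2, which joins Brca1 to Brca2, with 1.52, Rad51c with 0.99 and Atr, the kinase of stalled forks, with 0.86. None of the 6 was called between irradiated and control skin. In the average over days, 703 of the 19629 genes were higher and 399 lower in that fit. The annotated exons of Fanci and Rad54l share 16% and 15.4% of their bases with genes on the opposite strand.

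Proliferation markers were also higher after wounding. All 35 proliferation markers rose at day 3 (median 1.61), 34 of 35 at day 6 (0.99) and 35 at day 9 (1.11). Their summed level was 113.3 to 175.2 FPKM at day 0, then 485.8 to 488.4 (day 3), 293.9 to 345.8 (day 6) and 300.3 to 387.4 (day 9). Mcm5, part of the replicative helicase, rose by 2.30 at day 3 and Ccnb1, the mitotic cyclin, by 2.07. Mki67, a marker of cycling cells, rose by 1.96, 1.40 and 1.58, and Top2a, which untangles replicated chromosomes, by 1.99, 1.47 and 1.54. Of the 92 further repair genes 41 rose and 5 fell at day 3 (among them Clspn by 1.36, Rad18 by 1.21 and Rad51ap1 by 1.20), 28 rose and 6 fell at day 6, and 41 rose and 7 fell at day 9. Of the 26 p53 targets 7 rose and 6 fell at day 3, 7 and 7 at day 6, and 7 and 10 at day 9.

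The make-up of the tissue also differed from day 0. All 5 skeletal muscle markers fell on each day, with sums of 15417 to 18305 FPKM at day 0, then 2484 to 3529 (day 3), 2481 to 3445 (day 6) and 1100 to 2003 (day 9). Of the keratinocyte markers 3 of 6 rose at day 3 (2499 to 4281 FPKM at day 0 and 13792 to 14479 at day 3), and at days 6 and 9 2 rose and 1 fell. Leukocyte markers rose in 3, 4 and 5 of 5 (73.9 to 166.5 FPKM at day 0, 240.9 to 345.2 at day 3). Hair follicle markers rose in 6 of 6 at day 9 (1.38 to 3.47 FPKM at day 0, 33.7 to 488.8 at day 9) and fibroblast markers in 4 of 6 at day 9. How much of the repair gene changes these cells carry was not tested.

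From day 3 to day 9 the arms were also compared within themselves. In control skin 0 of 35 repair genes rose (all genes 8.02%) and 3 fell in the unscaled table (10.2%), namely Lig1 by 0.54, Brca2 by 0.35 and Mre11a by 0.32, and none of the 3 was called under all 4 scalings. The median was -0.20, against -0.07 over all genes, and 13 of 35 proliferation markers fell. In irradiated skin 0 repair genes rose (0.38%) and 0 fell (0.583%), with a median of 0.06 against -0.01, and 4 had an unadjusted p under 0.05 (16.2% of all genes). Polk was lower at day 9 than at day 3 in irradiated skin (-0.27, adjusted p 0.148), with all day-9 libraries below all day-3 libraries, and Polh (0.20), Ung (0.35) and Xrcc1 (0.17) were higher. The control comparison shares the control day-3 libraries with the radiation comparison of day 3 and with that of day 3 against day 0.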

How the data were processed

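The authors sequenced paired-end Smart-Seq2 libraries of skin RNA on an Illumina NovaSeq, per the labels' protocols. Reads were aligned to mm10 with HISAT2 2.2.1, per the submitters' processing notes. How fragments were counted (tool, annotation, use of strand) was not given in the sources used here, so fragments of overlapping genes on opposite strands may be shared. The deposited values are FPKM, made by the authors, with no counts. With gene lengths from GENCODE M21, 31476 of 34067 genes gave whole fragments in every library, within a tolerance of 0.01. Another length made those of another 2180 genes whole by construction.

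Genes with at least 1 FPKM in at least 2 libraries were analysed as log2(FPKM + 1) with limma 3.58.1 (limma-trend, R 4.3.3), 1 mean per group over all 17 libraries, with Benjamini-Hochberg adjustment over all 15271 genes. The 10 comparisons were irradiated against control at each day, averaged, and tested for differing between days, the control days against day 0, and day 9 against day 3 in each arm. The labels do not tie libraries to animals, so p measures only the spread between these samples, which may be technical. Fits were tested on simulated data. Figures were drawn with matplotlib 3.10.9.

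The genes and lists were chosen with earlier results of these data known. Given with every library are genes called in a radiation comparison and at most 10 with the largest changes of each other comparison. From the other repair genes, proliferation markers and p53 targets, up to 4 called genes with the largest changes and Mki67, Top2a, Cdkn1a, Ccng1, Mdm2 and Phlda3 were named, and further genes were chosen after their values were seen. Alternatives were other pseudocounts, filters, scalings, weights, fits and left-out libraries. A result for 1 gene of the further repair genes is not reported here.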

Additional observations from a re-analysis of the deposited data

How the results depend on the processing

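The counts below are repair genes called in either direction, with the count of the report first. For fits with 1 library left out, the share of all genes is not given. At day 3, irradiated against control, 2 became 1 with a pseudocount of 0.1 (1.52% of all genes), no filter (0.721%) or a minimum of 5 FPKM (2.5%). The count was also 1 with nuclear scaling (1.67%), a replicate block (1.4%) or limma-voom with a minimum of 10 fragments (1.23%). It was 6 with array quality weights (8.13%), and 0 to 1 with 1 library left out. At day 9, 0 became 2 with quantiles (8.16% of all genes) and 7 with weights (36.7%). In the average, 1 became 0 with a minimum of 5 FPKM (9.02% of all genes), where Polk was not tested. It became 2 with median of ratios (8.46%), quantiles (9.34%) or weights (7.83%), and 1 to 2 with 1 library left out. For differing effects, 0 became 6 with weights (10.5% of all genes). Against day 0, 22 at day 3 became 7 with a minimum of 5 FPKM (46.8% of all genes) and 9 with only the groups compared (17.9%). The count was 13 to 22 with 1 library left out. The 13 at day 6 became 5 with a minimum of 5 FPKM (43.5% of all genes), 0 with only the groups compared (5.56%) and 7 with weights (17.6%). They became 9 to 12 with 1 library left out. The 16 at day 9 became 4 with a minimum of 5 FPKM (55.1% of all genes) and 9 to 17 with 1 library left out. From day 3 to day 9 in control skin, 3 became 1 with a pseudocount of 0.1 (17.9% of all genes). The count was also 1 with no filter (7.05%) or a minimum of 5 FPKM (21.5%). It was 0 with nuclear scaling (14.1%) or only the groups compared (22%). It was 9 with weights (41.5%) and 0 to 2 with 1 library left out. In irradiated skin, 0 became 8 with weights (22.6% of all genes) and 1 with only the groups compared (5.24%). A minimum of 5 FPKM tests fewer genes, here and among the repair genes, and a left-out library leaves fewer samples. The cause of the other changes was not tested.

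Over single genes and comparisons, 6086 values kept their side of the threshold, 185 lost the call and 79 gained it. Of the values called in the report or in the alternative, 0 turned round. For values called in neither, direction was not compared. The labels do not say that replicate numbers pair the libraries. Correlations of same-numbered deviations ran from -0.122 to 0.298, and with so few libraries per group they cannot exclude pairing. With the replicate block 23 rose and 1 fell at day 3 against day 0, 9 and 3 at day 6, and 13 and 2 at day 9. Of all 15271 genes, 3564 rose and 1701 fell at day 3 in that fit. The counts were 3225 and 2273 at day 6, and 4577 and 2796 at day 9. Depth limits the 10 genes that went below 50 fragments.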
